A study of Mus musculus with 6 samples.

Results

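The core pluripotency genes described here are Pou5f1, Sox2, Nanog, Sall4, Utf1, Lin28a, Dppa2, Dppa3, Dppa4 and Dppa5a, 10 genes chosen by symbol. They were read on all probe sets that the platform annotation gives to exactly 1 gene, that gene being on the list: 15 of 45101 probe sets, 14 of which were bright enough to be tested, with at least 1 for each of the 10 genes. Expression was measured on Affymetrix mouse arrays in total RNA of mouse embryonic stem cells. The study compared cells homozygous for loss of both glycogen synthase kinase-3 genes (Gsk-3a-/-; Gsk-3b-/-, called DKO here) with wild-type cells of the line E14K, with 3 arrays per genotype. All cells were kept without feeders on gelatin in 15% serum with 1000 units/ml of leukaemia inhibitory factor, so both genotypes were held in the same self-renewal medium. Neither the number of DKO clones nor the source of the replicates (separate cultures or 1 culture) is given in the labels, and p-values therefore measure only how these samples vary, which may be technical variation. A difference between cell lines that does not come from Gsk-3 cannot be told apart from one that does.

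Pluripotency is held by a small circuit of transcription factors. Pou5f1 (Oct4, a POU homeodomain protein) and Sox2 (an HMG-box protein) bind DNA together, activate Nanog and each other's genes, and share targets with Nanog, a homeodomain protein, and with Sall4, a zinc-finger protein that also maintains Pou5f1. Gsk-3 phosphorylates beta-catenin for degradation, and chemical inhibitors of Gsk-3 are used to hold mouse embryonic stem cells in the naive state. Utf1 is a chromatin-bound target of Pou5f1 and Sox2, Lin28a is an RNA-binding protein that blocks maturation of let-7 microRNAs, and the Dppa genes were named for expression that follows that of Pou5f1.

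Motifs of the circuit's factors were searched upstream of its own genes. The set of RefSeq (GRCm38.p6) upstream windows used here held 5 of the 10 genes, 7 windows in all. Sall4, Dppa2, Dppa3, Dppa4 and Dppa5a had no window in this set and were not searched. The 250 bases before each annotated start were searched on both strands for an octamer core (ATGCAAA, bound by Pou5f1), a Sox core (CATTGT), a Tcf/Lef core (CTTTGA, the site type of the beta-catenin partners) and the Sox and octamer cores 1 base apart (CATTGTNATGCAAA), which contains both shorter motifs. The windows of Nanog, Sox2 and Lin28a are shown because they hold such matches, in capitals. The Nanog window lies at chr6:122707239-122707488 on the + strand, that of Sox2 at chr3:34649745-34649994 on the + strand and that of Lin28a at chr4:134018817-134019066 on the - strand, all read 5′ to 3′ towards the start.
Nanog: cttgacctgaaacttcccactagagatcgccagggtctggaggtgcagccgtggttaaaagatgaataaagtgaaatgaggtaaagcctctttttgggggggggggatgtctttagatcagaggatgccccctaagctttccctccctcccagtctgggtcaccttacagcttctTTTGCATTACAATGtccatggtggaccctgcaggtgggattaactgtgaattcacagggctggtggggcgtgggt
Sox2: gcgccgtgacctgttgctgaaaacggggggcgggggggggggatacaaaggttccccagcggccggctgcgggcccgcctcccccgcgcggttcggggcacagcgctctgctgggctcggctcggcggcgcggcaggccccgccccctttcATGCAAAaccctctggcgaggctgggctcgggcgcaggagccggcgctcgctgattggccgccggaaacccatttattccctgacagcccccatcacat
Lin28a: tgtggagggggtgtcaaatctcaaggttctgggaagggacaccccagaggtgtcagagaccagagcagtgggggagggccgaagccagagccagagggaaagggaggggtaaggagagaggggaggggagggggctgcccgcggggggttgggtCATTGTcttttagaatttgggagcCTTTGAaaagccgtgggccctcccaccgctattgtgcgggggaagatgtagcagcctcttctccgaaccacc
In Nanog the capitals are the composite on the reverse strand, at bases -75 to -62 before the first annotated start. Of 32851 windows of the same length in the table, 2 held this composite (0.00609%), and both are windows of Nanog that overlap and share this 1 site. Sox2 has an octamer core at -99 to -93, a motif found in 4.12% of windows. Lin28a has a Sox core at -96 to -91 (10.7% of windows) and a Tcf/Lef core at -72 to -67 (13.8%). Of the 2 windows of Pou5f1, the second held a Sox core at -158 to -153 and the first none of these letters; that of Utf1 held none. A match is a string of letters and says nothing here of binding.

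Before the results, a property of the arrays has to be stated. Median intensities were 10 to 11, and with 6 arrays the precision of any value is limited. Bacterial and phage control probe sets (18 per array) were bright on the 2 arrays numbered 3, with a mean log2 value of 9.84 in DKO and 10.22 in wild-type, against 1.68 to 1.83 on the other 4 arrays, and an alternative fit therefore took both arrays numbered 3 as a batch, although the labels name none. Signal at the 3' over the 5' end of 3 control transcripts was 1.83 to 2.44 log2 units in DKO and 1.64 to 2.30 in wild-type cells, higher in DKO in each same-numbered pair; its part in the results was not tested. Gsk3a read 6.77 ± 0.63 in DKO cells, against 8.15 ± 0.44 in the wild-type (log2, SD, n = 3), with limma's adjusted p = 0.0942, or 0.00646 with the replicate number as a block. Gsk3b differed by -0.21 on its brightest probe set (limma's adjusted p = 0.832) and by -0.71 to -0.02 on 4 others, of which 0 passed. Where these probe sets lie relative to the deleted parts is not known here, so they do not check the labels.

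The wild-type signal places these genes near the top of the array. Of the 10 genes, read on the brightest probe set of each, 7 lay in the top 5% and 3 in the top 1% of 45037 probe sets ranked by mean wild-type log2 intensity, with a median percentile of 98.0. Dppa5a ranked 120th (percentile 99.7), Sall4 199th, Nanog 404th, Sox2 496th and Dppa2 688th. Lin28a followed at percentile 97.5, Dppa4 at 95.1, Pou5f1 at 94.9 and Utf1 at 90.8. Dppa3 stood apart at percentile 67.1, rank 14816. Probe sets differ in affinity, so these ranks are of signal and not of transcript number. In DKO cells Pou5f1 ranked above Dppa4 and the order was otherwise unchanged: Dppa5a was at percentile 99.8, Sall4 at 99.6, Nanog at 98.9 and Dppa3 at 58.1.

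**Figure D1:**
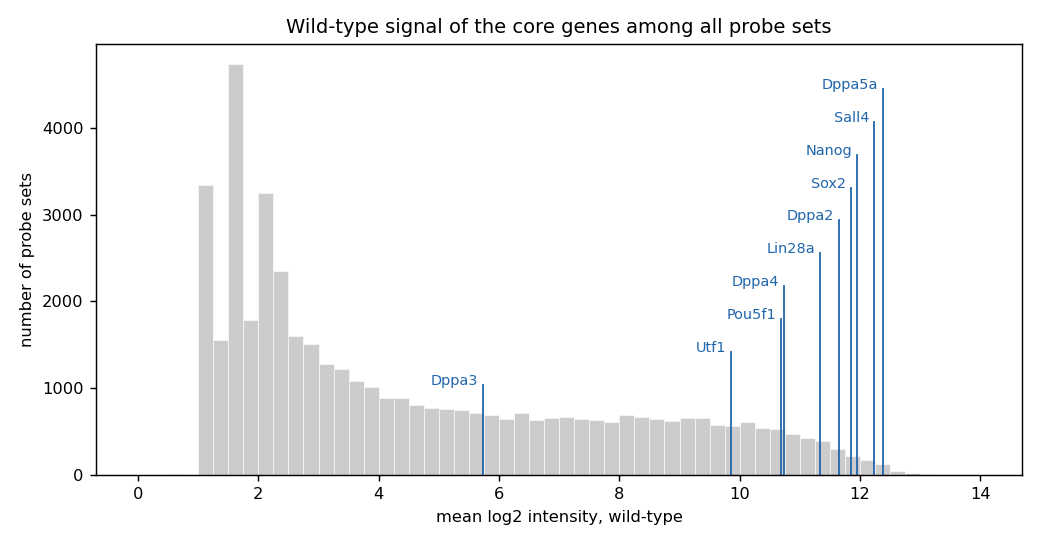
Histogram of the mean log2 intensity of 45037 probe sets over 3 wild-type arrays (x axis, log2 intensity; y axis, number of probe sets), with a line for the brightest probe set of each of the 10 core genes. The lines of 9 genes stand in the right-hand tail and that of Dppa3 stands alone near a log2 intensity of 5.73.

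Without a block, no core gene was called different between DKO and wild-type cells. With the replicate number as a block, 1 of 14 probe sets was called, that of Dppa3 (lower in DKO, adjusted p = 0.00297), where 9.57% of all probe sets were. Without the block none of the 14 tested probe sets passed an adjusted p of 0.05 in either direction by limma (0 of 14, and 0 of 10 genes), where 3.24% of all 20841 tested probe sets (1.93% lower and 1.31% higher in DKO) and 4.13% of 10496 genes (2.5% lower and 1.64% higher) passed. Over replicates 1 and 2 alone it was also 0, where 2.11% of probe sets and 2.82% of genes passed. At an unadjusted p under 0.05 (13% of all probe sets, 14.7% of genes) there were 2 probe sets, Dppa3 and the dimmer one of Dppa2; a linear model without moderation called 0, but it called only 0.149% of all probe sets. For 8 of the 10 genes the 95% interval of the DKO minus wild-type difference lay within 1 log2 unit of 0, as for 57.5% of all genes; by probe set it was 10 of 14, against 56.8%. The genes outside were Utf1 and Dppa3. A missed threshold does not show equal levels, and the intervals give what differences remain possible. In bulk RNA, fewer cells of a type and less RNA per cell cannot be told apart.

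**Figure D2:**
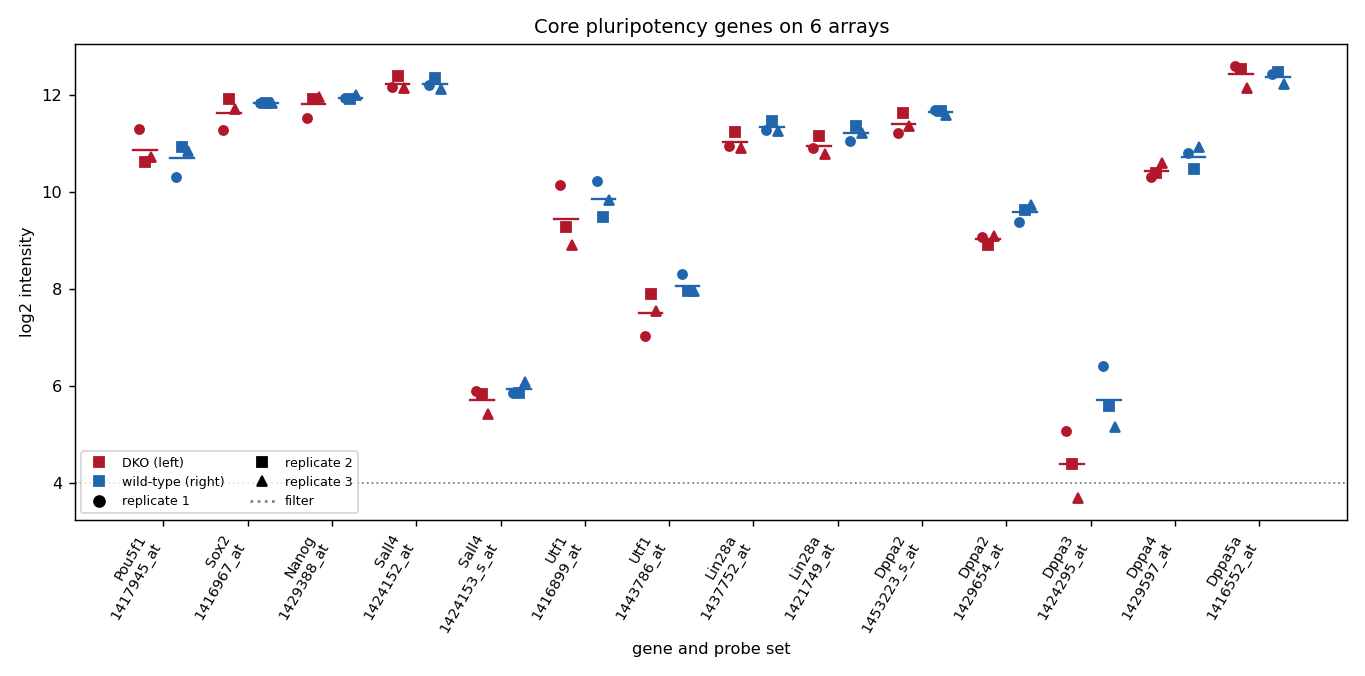
Log2 intensity (y axis) of the 14 tested probe sets of the core genes (x axis) on each of 6 arrays, DKO in red on the left and wild-type in blue on the right of each place, with group means as bars and the filter at a log2 intensity of 4 as a dotted line. The genotypes overlap for 10 of 14 probe sets, and Dppa3 is the member with the widest gap, with means of 4.39 for DKO cells and 5.73 for wild-type cells.

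Of the DNA-binding trio, Pou5f1 read 11.30, 10.61 and 10.72 in DKO replicates 1 to 3, against 10.32, 10.92 and 10.84 in wild-type replicates 1 to 3 (log2 intensity). The highest DKO array and the lowest wild-type array bear the same number, and the other 4 arrays lie within the range they span. The difference was 0.18 (SE 0.28, 95% interval -0.46 to 0.83, adjusted p = 0.887). The sign rests on replicate 1: without DKO replicate 1 the difference was -0.02, and without wild-type replicate 1 it was -0.0031.

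Sox2 read 11.27, 11.91 and 11.72 in DKO, against 11.84, 11.84 and 11.85 in wild-type cells. The wild-type arrays were almost identical (SD 0.0031), and 1 DKO array lay above them and 2 below. The difference was -0.21 (SE 0.25, interval -0.77 to 0.35, adjusted p = 0.845), or -0.03 without DKO replicate 1. Nanog had intensities of 2964, 3897 and 3981 in DKO, against 3935, 3845 and 4085 in wild-type cells, again with DKO replicate 1 alone below the others. Its log2 difference of -0.14 (SE 0.23, interval -0.67 to 0.38, adjusted p = 0.895) was -0.0055 without that array. On DKO replicate 1 Pou5f1 was thus at its highest of the 6 arrays while Sox2 and Nanog were at their lowest.

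Sall4 has 2 tested probe sets of very unequal signal. The bright one read 12.17, 12.39 and 12.14 in DKO, against 12.21, 12.36 and 12.13 in wild-type cells, a difference of 0.00037 (SE 0.22, interval -0.51 to 0.51). The arrays match pair by pair, at -0.04, 0.03 and 0.0064 log2 units for replicates 1, 2 and 3. The dim one had intensities of 60, 57 and 43 in DKO and 58, 58 and 68 in wild-type cells, and differed by -0.21 (adjusted p = 0.832).

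Utf1 was the most variable of the bright members. Its brightest probe set had intensities of 1130, 624 and 479 in DKO, against 1198, 718 and 918 in wild-type cells. Each DKO array was below its same-numbered wild-type array, but the genotypes overlapped, since DKO replicate 1 exceeded wild-type replicates 2 and 3. The log2 difference was -0.41 (SE 0.35, interval -1.21 to 0.39, adjusted p = 0.761), and -0.14 over replicates 1 and 2 alone. The second probe set read 132, 239 and 188 in DKO and 317, 248 and 249 in wild-type cells, with no overlap, and differed by -0.57 (interval -1.21 to 0.06, adjusted p = 0.452). The third Utf1 probe set was not tested, with intensities of 2 to 3 in the DKO arrays and 3 to 4 in the wild-type arrays, at the bottom of the array's range.

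Lin28a was lower in DKO on each of its 2 probe sets by like amounts. The brightest read 10.95, 11.23 and 10.90 in DKO, against 11.28, 11.47 and 11.26 in wild-type cells (log2). The groups did not overlap on this probe set, although the gap between the highest DKO and the lowest wild-type array was narrow. The same-numbered pairs differed by -0.34, -0.24 and -0.36, a mean of -0.31 (SE 0.23, interval -0.83 to 0.20, adjusted p = 0.687). The second probe set differed by -0.26 (adjusted p = 0.77), with overlap.

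Dppa2 and Dppa4 encode SAP-domain proteins that bind each other and act on chromatin, and the genes are neighbours. The brightest probe set of Dppa2 had intensities of 2386, 3162 and 2635 in DKO, against 3309, 3270 and 3062 in wild-type cells, a log2 difference of -0.25 (adjusted p = 0.783). Its dimmer probe set had 543, 478 and 544 in DKO and 668, 794 and 848 in wild-type cells. Here all DKO arrays lay below all wild-type arrays, and the difference was -0.56 (SE 0.23, interval -1.07 to -0.04, unadjusted p = 0.0368 by limma, adjusted p = 0.324, or 0.145 with the replicate block). Dppa4 read 1269, 1350 and 1563 in DKO, against 1779, 1432 and 1939 in wild-type cells, with overlap through wild-type replicate 2. Its log2 difference was -0.29 (interval -0.83 to 0.24, adjusted p = 0.732), and it was lower in DKO in 3 of 3 same-numbered pairs.

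Dppa5a, which encodes a KH-domain RNA-binding protein, was the brightest member. Its intensities were 6238, 5953 and 4536 in DKO, against 5514, 5703 and 4780 in wild-type cells. In both genotypes replicate 3 was the lowest array. The difference was 0.05 (SE 0.24, interval -0.49 to 0.60, adjusted p = 0.969).

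Dppa3 (Stella, an egg-derived protein that shields methylated DNA after fertilisation) differed most. It had intensities of 34, 21 and 13 in DKO, against 86, 48 and 36 in wild-type cells. All 3 DKO arrays lay below all 3 wild-type arrays, and the highest and the lowest array of each genotype bore the same numbers. The SD was 0.69 in DKO and 0.64 in wild-type cells (log2). The same-numbered pairs differed by -1.34, -1.19 and -1.47. Without a block the log2 difference of -1.33 (SE 0.42, interval -2.29 to -0.38) missed the threshold, at an adjusted p of 0.171, and at 0.102 to 0.368 when single arrays were dropped. Blocking on replicate number, its SE was 0.20, the interval -1.79 to -0.88 and limma's adjusted p = 0.00297, with 9.57% of all probe sets and 10.7% of genes called in that fit. With that batch as a block it was 0.0359, with 5.36% of probe sets and 6.55% of genes called. Over replicates 1 and 2 alone the difference was -1.27 (adjusted p = 0.206). DKO replicate 3, at an intensity of 13, lay under the filter of 16, and at such values rounding to whole numbers is coarse. The probe set of Dppa3 is the only one of the 14 called in either blocked fit.

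**Figure D3:**
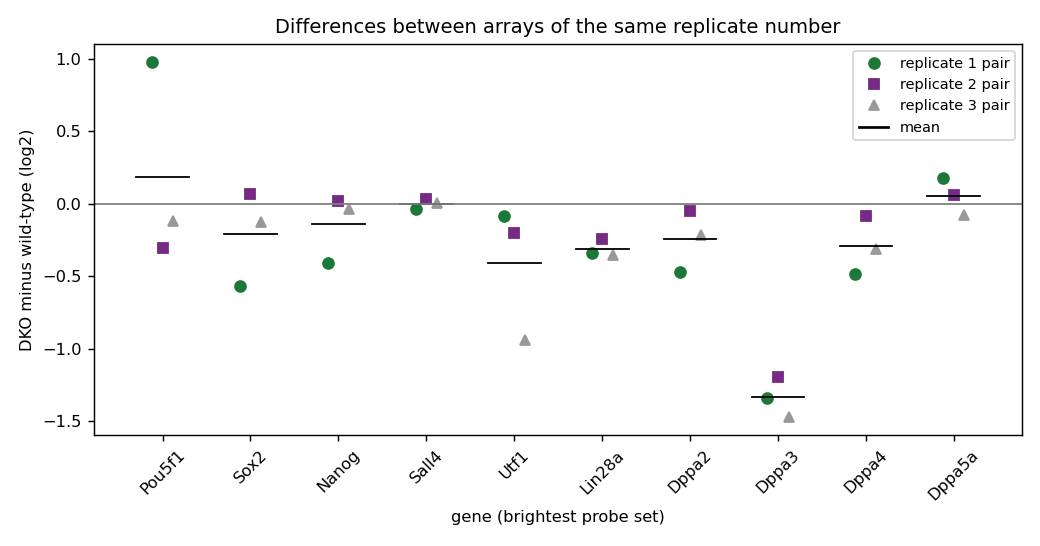
Difference between the DKO and the wild-type array of the same replicate number (y axis, log2) for the brightest probe set of each core gene (x axis), with 1 symbol per replicate number and the mean as a bar. The 3 pairs of Dppa3 lie together between -1.47 and -1.19, while those of Pou5f1 spread between -0.31 and 0.98.

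Across the members the differences leaned below 0. Of 14 probe sets 11 were below 0, where 52.2% of all tested probe sets were. By gene 7 of 10 were below 0, against 50.3% of all genes, and the median difference was -0.23, or -0.21 without Dppa3, beside -0.0025 over all genes. DKO and wild-type arrays were fully separated for 4 of 14 probe sets, where 16.7% of all tested probe sets were; all 4 were lower in DKO, where 9.17% were. These 4 belong to Utf1, Lin28a, Dppa2 and Dppa3, and for Utf1 and Dppa2 it was not the brightest probe set. On brightest probe sets 2 of 10 genes did not overlap, both lower in DKO, where 18.9% of all genes did not and 10.4% were lower. The mean log2 value over the 10 brightest probe sets was 10.66, 10.63 and 10.42 on DKO replicates 1 to 3 and 10.92, 10.82 and 10.78 on wild-type replicates 1 to 3. Dppa3, at -1.33, adds more to the gap between these means than any other member, and they were not taken without it. The gap is therefore not a measure of a lean shared by the 10 genes. Genes of 1 circuit measured on the same arrays are not independent of each other, and no test was made over them together.

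**Figure D4:**
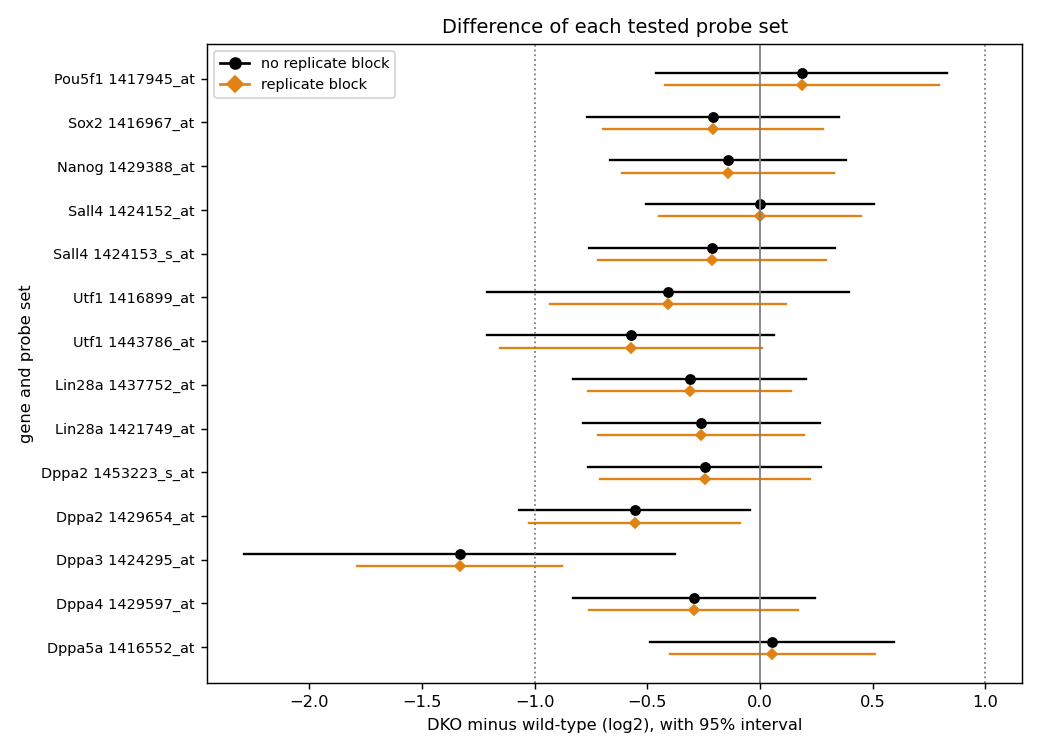
DKO minus wild-type difference (x axis, log2) of the 14 tested probe sets (y axis) with 95% intervals, in black without and in orange with the replicate number as a block; dotted lines mark 1 log2 unit either side of 0. The interval of Dppa3 is shorter with the block, at -1.79 to -0.88 against -2.29 to -0.38 without it.

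Likeness of the members over the 6 arrays is given as a description, without a test. Lin28a with Dppa2 had a Pearson's r of 0.90 over 6 arrays, and 0.898 to 0.929 with any 1 array left out. Sox2 with Dppa2 had 0.89, and 0.812 to 0.961 with any 1 left out. Utf1 with Dppa3 had 0.82, and 0.642 to 0.922 with any 1 left out. The values among Pou5f1, Sox2 and Nanog rested on DKO replicate 1. Sox2 with Nanog had 0.94, but -0.28 without that array. Pou5f1 had -0.76 with Sox2 and -0.75 with Nanog, but -0.13 and 0.08 without it. All values of an array share its RNA and hybridisation. Among 10159 other named genes the patterns most like that of Pou5f1 were those of Pfdn6 (r 0.988), U2af1 (0.981) and Ecd (0.981). For Sox2 they were Ect2 (0.999), Ctbp2 (0.997) and Naa50 (0.996), for Nanog Enox1 (0.997), Golga4 (0.994) and Tra2b (0.993), and for Dppa3 Cited2 (0.994), Tlr3 (0.992) and Snx10 (0.991). These values are the highest of many compared over few arrays. Without DKO replicate 1 they were 0.952 to 0.976 for Pou5f1, 0.947 to 0.978 for Sox2, 0.826 to 0.916 for Nanog and 0.993 to 0.997 for Dppa3.

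On their brightest probe sets, other genes of the wider pluripotency network were also not called. Of 24 tested genes of this list 0 passed by limma (3 at an unadjusted p under 0.05, 0 without moderation, 1 with the replicate block), and the median difference was -0.03. Over all genes 4.13% passed, 14.7% had an unadjusted p under 0.05 and 10.7% passed with the replicate block. Without moderation 0.149% of all probe sets passed. The counts of this list and of those below are to be read beside these shares. At such shares a short list can hold 0 calls, so 0 does not show stable levels. The stem cell markers Zfp42 (Rex1), Esrrb and Fgf4 were bright in both genotypes: Zfp42 read 11.37 ± 0.30 in DKO cells, against 11.50 ± 0.25 in the wild-type, Esrrb 11.22 ± 0.09 in DKO, against 10.77 ± 0.34 in wild-type, and Fgf4, a growth factor gene driven by Pou5f1 and Sox2, 11.13 ± 0.52 in DKO, against 11.32 ± 0.12 in wild-type (log2, SD, n = 3); none was called. The difference farthest from 0 was that of Eras, a Ras-like gene of embryonic stem cells, at -1.09 (adjusted p = 0.12, or 0.0153 with the replicate block). Tfcp2l1, a naive-state transcription factor, differed by 0.74 (adjusted p = 0.179), Tex19.1 by 0.68 and the nuclear receptor gene Nr5a2 by 0.63. Tbx3, a T-box factor of the naive state, differed by 0.43 on its brightest probe set (adjusted p = 0.552) and by 0.59 to 1.55 on 3 others, 1 of which passed; the mean over its probe sets differed by 1.03 (limma's adjusted p = 0.0257).

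Genes of the proteins that work with the core factors were likewise not called. Of 23 tested genes for partners of Pou5f1 and Nanog, among them subunits of the NuRD deacetylase and of the BAF remodelling complexes, 0 passed (0 also at an unadjusted p under 0.05 and with the replicate block), with a median of -0.04. On brightest probe sets the farthest from 0 were the BAF genes Smarcc1 (-0.63, adjusted p = 0.428) and Arid1a (-0.48) and the NuRD genes Chd4 (-0.44) and Gatad2b (-0.31). Their other probe sets did not all agree. Smarcc1 differed by -0.33 to 0.11 on 3 others, Chd4 by -0.29 to 0.04 on 2 and Gatad2b by -0.32 to 0.10 on 3. Arid1a differed by -0.63 on 1 other.

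Around Lin28a, 11 genes of the let-7 pathway were tested and 0 passed (2 at an unadjusted p under 0.05, 0 without moderation, 1 with the replicate block), with a median of 0.03. Tut4, the terminal uridylyltransferase that LIN28A recruits to let-7 precursors, differed by -0.65 (adjusted p = 0.271). Differences of let-7 targets had both signs. Mycn read 10.54 ± 0.41 in DKO cells, against 11.49 ± 0.08 in the wild-type (log2, SD, n = 3), with no overlap and a difference of -0.96 (adjusted p = 0.116, or 0.0251 with the block; its other probe set, at -1.48, passed), and Hmga2 differed by 0.49 (adjusted p = 0.408). Xpo5, the exportin of microRNA precursors, differed by 0.43 on its brightest probe set (limma's adjusted p = 0.556) and by 0.03 on 1 other.

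Among the paralogues of Pou5f1, Sox2 and Sall4 some genes were called. Of 10 tested relatives 3 fell, 1 was called higher (Pou3f2, tested only through its DKO arrays) and 6 did not pass. Over all genes 4.13% were called. The median of the relatives was -0.79. Some of these relatives were already known to differ in these data when the list was written. Pou3f1 (Oct6), a POU gene of the epiblast after implantation, read 6.87 ± 0.17 in DKO cells, against 9.99 ± 0.22 in the wild-type (difference -3.12, SE 0.24, adjusted p = 0.000274). Sall2 read 4.22 ± 0.50 in DKO cells, against 6.81 ± 0.90 in the wild-type (difference -2.59, adjusted p = 0.0163), a call lost on dropping DKO replicate 1 (0.127) or DKO replicate 2 (0.0725), without a filter (0.181) and without moderation (0.265). Sox11, a gene of neural progenitors, fell by 1.20 on its brightest probe set (adjusted p = 0.0254) and by 1.48 to 2.15 on 5 others, all of which passed; on the brightest the call was lost whichever of the 6 arrays was dropped (adjusted p = 0.0521 to 0.136), without moderation (0.0983) and over replicates 1 and 2 alone (0.13).

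Pou3f2 (Brn2), another neural POU gene, was under the filter on all wild-type arrays. It was tested only because its DKO arrays passed the filter, so its call gives no support for a rise. The means were 4.96 ± 0.49 in DKO and 3.06 in wild-type cells. With wild-type values raised to the filter they differed 1.94-fold, a limit that leaves out the spread of the arrays. Limma's adjusted p was 0.0199. The gene did not pass without DKO replicate 1, DKO replicate 2 or wild-type replicate 2 (0.0834, 0.0757 and 0.0839). Nor did it pass without a filter (0.16) or without moderation (0.242). The close Sox2 relatives Sox1 (-0.71) and Sox3 (-0.88), and Sall1 (-0.69) and Sall3 (1.01), did not pass. With the replicate block 7 of the 10 relatives passed, where 10.7% of all genes did, against 4.13% without it. The 7 were the 4 above with Sox3 (adjusted p = 0.0459), Sox4 (0.0261) and Sall3 (0.0394). Whether a core gene and its relatives differ in their response was not tested.

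**Figure D5:**
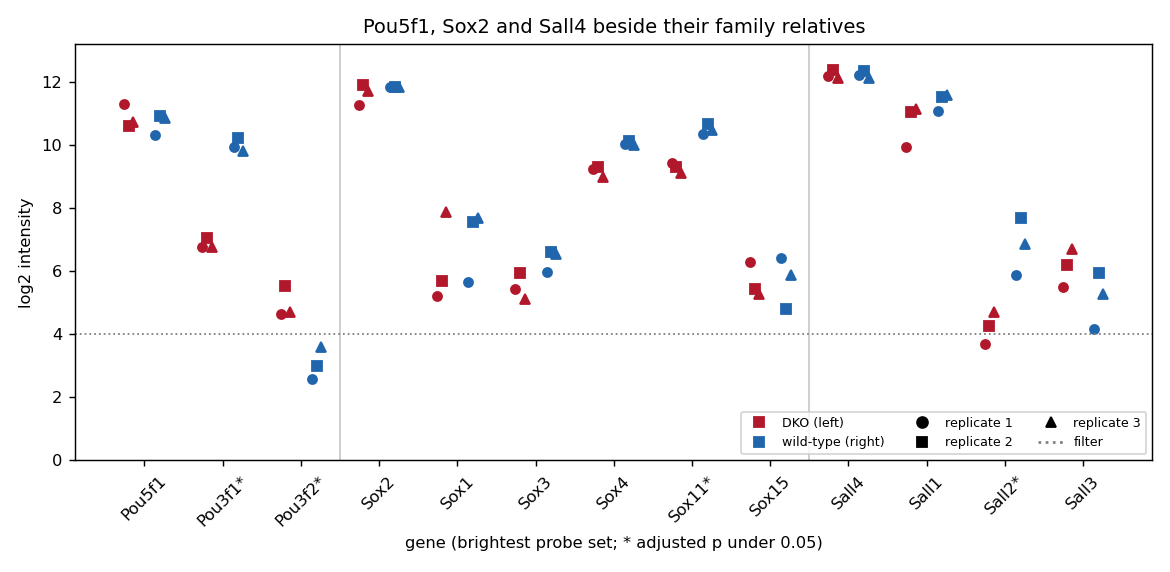
Log2 intensity (y axis) of Pou5f1, Sox2 and Sall4 and the tested members of their families (x axis, brightest probe sets) on each array, DKO in red on the left and wild-type in blue on the right, with a star for an adjusted p under 0.05. Pou3f1, Sox11 and Sall2 lie lower in DKO and Pou3f2 higher, while the arrays of Pou5f1, Sox2 and Sall4 overlap. Pou3f2 passed the filter only through its DKO arrays.

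Genes next to or near the core genes on their chromosomes were read too. Not all of these neighbours adjoin a core gene. Apobec1, Foxj2 and Cchcr1 each had 1 protein-coding gene between, and Khdc3 had 38 between it and Dppa5a. In the order of protein-coding genes of the RefSeq table, Slc2a3 (a glucose transporter) adjoins Nanog, Gdf3 (a growth factor) adjoins Dppa3, Ooep adjoins Dppa5a, Morc1 adjoins Dppa2 and Atp9a adjoins Sall4. Of 12 tested neighbours 0 passed (2 at an unadjusted p under 0.05, 0 without moderation, 2 with the replicate block), with a median of 0.05. On their brightest probe sets Slc2a3 (0.02), Gdf3 (-0.19) and Ooep (-0.07) differed little. Slc2a3 differed by 0.0067 to 0.71 on 3 others, of which 0 passed, and Gdf3 by -0.26 on 1 other. Atp9a, a phospholipid flippase gene, read 5.58, 5.67 and 6.25 in DKO against 4.64, 4.25 and 4.95 in wild-type cells. The difference was 1.22 (limma's adjusted p = 0.062, or 0.00583 with the block), next to a Sall4 difference of 0.00037. Atp9a differed by 0.747 to 0.754 on 2 others, of which 0 passed, and by 0.91 as a gene mean (limma's adjusted p = 0.15). Morc1, a germline repressor gene, differed by 1.04 (adjusted p = 0.282, or 0.0168 with the block), next to Dppa2 at -0.25.

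Markers of other cell types were read on the same arrays. Trophoblast markers held 1 rise, Cdx2, at 10.76 ± 0.36 in DKO and 6.67 ± 0.04 in wild-type cells (difference 4.09, adjusted p = 9.71e-05), among 6 tested of 11 on the array; Krt8, Krt18, Tead4, Tfap2c and Eomes did not pass, and 3 were under the filter on all arrays. Of the 6 tested, 3 had an unadjusted p under 0.05, and 2 were called with the replicate block, Cdx2 and Eomes (difference 1.24, adjusted p = 0.0787, or 0.00734 with the block). Tfap2c differed by -0.89 on its brightest probe set (adjusted p = 0.354) and by -1.42 to -0.92 on 2 others, 1 of which passed. Their summed intensity was 5123 to 7976 in DKO and 4353 to 7874 in wild-type cells. Of 10 tested endoderm markers 0 passed (2 at an unadjusted p under 0.05, 0 with the replicate block, 1 over replicates 1 and 2 alone), with sums of 9257 to 14588 in the DKO arrays and 7251 to 12798 in the wild-type arrays. The 1 was Dab2, at 7.13, 7.06 and 7.74 in DKO, against 9.49, 9.57 and 7.23 in wild-type cells (log2), where wild-type replicate 3 stood apart (adjusted p = 0.305 over all arrays, 0.00579 over replicates 1 and 2). Sox17 at 6.83, Gata6 at 6.46 and Foxa2 at 3.70 were at their lowest of the 6 arrays on wild-type replicate 3. So were Gata4 at 7.32, Pdgfra at 8.78, Lama1 at 9.33 and Sparc at 11.71, but not Dab2, Sox7 or Lamb1. Of 5 tested neural markers Pax6 fell (difference -3.47, limma's adjusted p = 0.000826) and 2 had an unadjusted p under 0.05. With the replicate block 3 were called, adding Nes (difference -1.69, adjusted p = 0.0518, or 0.00446 with the block) and Tubb3 (-0.82, adjusted p = 0.541, or 0.0329 with the block). Of the 5, 4 differed below 0, Sox1 among them (-0.71). Zic1 went the other way (difference 0.93, limma's adjusted p = 0.712, or 0.0632 with the block). Sums of the neural markers were 160 to 531 in the DKO arrays and 365 to 722 in the wild-type arrays. Of 6 tested fibroblast markers 0 passed (1 at an unadjusted p under 0.05, 1 with the replicate block), with sums of 6151 to 6609 in the DKO arrays and 6068 to 7099 in the wild-type arrays. Of mesoderm markers 2 of 7 were tested and 0 passed (2 at an unadjusted p under 0.05, 1 with the block), with sums of 152 to 343 in the DKO arrays and 58 to 124 in the wild-type arrays. The part of such cells in the values of the core genes was not tested.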

How the data were processed

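The authors' deposited values are whole-number intensities, taken here as linear. Among the tools in the submitters' processing notes are limma 2.16.5, R 2.8.0 and GCRMA 2.14.1, with GCOS, and no roles are stated; how the values were normalized and the build are not given in the sources used here. No scanner files were used. The deposited values were converted to log2 without a pseudocount. Of 45101 probe sets 34958 had 1 gene, 932 several and 9211 none; 34754 matched RefSeq by gene identifier. A probe set was tested with a log2 value of at least 4 (intensity 16) on at least 3 of 6 arrays, which left 20841. The genotypes were compared with limma 3.58.1 under R 4.3.3 (lmFit, eBayes, two-sided, with statmod 1.5.0 for the robust alternative). Benjamini-Hochberg adjustment was over all tested probe sets, with a threshold of 0.05. The procedure was run on simulated data with independent noise on each array. That simulation had no replicate or batch structure, so it does not check the fit for arrays that share such structure. Genes are read on their brightest tested probe set. A genotype under the filter on all 3 arrays gives a limit, against the per-array higher of 4 and the value.

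No 2 arrays were alike: at most 1.79% of tested probe sets had equal values. After subtracting genotype means, arrays of equal number correlated at 0.427, 0.354 and 0.595, so by the rule used (each over 0.1) the titles' numbers pair the samples; what a number stands for is not stated. The fit without this block is the main one, and the block an alternative, with 16 others over all probe sets (pseudocount, filters, normalization, variance model, batch, weights, arrays left out) and gene means over probe sets. Correlations with single arrays left out, and level ranks after quantile normalization or with single wild-type arrays left out, were added after seeing the data. The members and gene lists were chosen with earlier results of these data known. Named are all members, targeted genes, list genes that passed, up to 4 others per non-marker list with the largest difference, the 3 most alike genes for 4 members, and, after their values were seen, Tbx3, stem cell, trophoblast, neural and endoderm markers, neighbours and family relatives for description. Sequences and motif shares come from RefSeq windows (GRCm38.p6), used with the table's gene order; the files' build was not matched to it.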

Additional observations from a re-analysis of the deposited data

How the results depend on the processing

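The count of 0 called core genes was kept under the pseudocount, filter, normalization, variance and weight alternatives, over replicates 1 and 2 alone and whichever of the 6 arrays was dropped; under the stricter filter only 12 of the 14 probe sets were tested, without Dppa3 and the dim one of Sall4. It was 1 of 14 probe sets (Dppa3) with the replicate block and with the batch block, by probe set and by brightest probe set. Over all probe sets the 675 calls became 373 with the stricter filter (log2 value of at least 6), 31 without moderation, 1995 with the replicate block, 1117 with the batch block and 440 over replicates 1 and 2, and 290 (without DKO replicate 1) to 604 with an array left out; without DKO replicate 2 or wild-type replicate 2 there were 381 and 319. Without a filter the 495 calls were 255 higher and 240 lower in DKO, against 273 and 402. The other pluripotency genes had 1 call with the replicate block, the batch block (Eras in both) and gene means (Tbx3), and 0 to 1 with an array left out. The let-7 pathway list had 1 with the replicate block, the batch block and gene means (Mycn in each). Neighbours had 2 with the replicate block and the batch block, 1 with quantile normalization and array weights, and 0 to 1 with an array left out. The 4 calls among relatives became 2 with the stricter filter, 1 without moderation, 7 with the replicate block and 1 to 3 with an array left out. The sign of differences near 0 turned: the bright Sall4 probe set was at -0.0027 over replicates 1 and 2 and -0.11 as a gene mean, and -0.0766 to 0.062 with an array left out; the dim Sall4 probe set was at 0.0119 over replicates 1 and 2; Dppa5a was at -0.0039 with quantile normalization and -0.0331 to 0.197 with an array left out; Pou5f1 ran from -0.0248 to 0.317 with an array left out. No scanner files were used, so the background correction was not varied. Apart from Dppa3, no core probe set's difference left the range of -0.77 to 0.34 under any alternative run. Dim probe sets, Dppa3 among them, are limited by rounding.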
